A study of Mus musculus with 3 samples.

Results

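Type 5A ON cone bipolar cells were taken here as the retinal barcodes that carried reads of both the ON pathway and the pair of genes Htr3a and Sox6. A member had at least 500 detected genes and at most 20% mitochondrial reads. It had 2 or more reads of Trpm1 and Grm6 together and 4 or more reads of Htr3a and Sox6 together. It had fewer than 2 reads of each of Igfn1, Cnmd and Sebox, and fewer than 4 of the 5 Müller glia genes Rlbp1, Slc1a3, Aqp4, Kcnj10 and Car14 at 3 or more reads. This rule found 622 members among 25237 kept barcodes, 237 in the wild-type library, 169 in the Tspan12 knockout library and 216 in the library from treated knockout mice.

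Bipolar cells carry the signal of photoreceptors to amacrine and ganglion cells, and the ON types depolarise when light lowers glutamate release. They do so through the metabotropic receptor mGluR6, encoded by Grm6, whose G protein cascade closes the TRPM1 channel in darkness. The type 5 cells form one branch of the mouse ON cone bipolar cells, with axons that end in the middle of the inner plexiform layer. Type 5A is known for the serotonin receptor channel subunit gene Htr3a and for Sox6, a transcription factor of the SoxD group. In the GRCm38 annotation, Htr3a lies on chromosome 9 from 48899213 to 48911099 and Grm6 on chromosome 11 from 50850685 to 50866208.

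The study dissociated retinas of postnatal day 26 mice with papain and profiled single cells with 10x Chromium 3′ v3 chemistry, after beads against CD73 and Annexin V had depleted photoreceptors and dying cells. The groups were wild type (WT), Tspan12 KO, and Tspan12 KO mice given the antibody F4L5.13 intraperitoneally, at 10 mg/kg on postnatal days 6, 9 and 12, followed by 4 mg/kg with 3 days between doses. The labels give the allele name Tspan12tm1.2Hjug as the strain of all 3 samples, WT included, and do not give the number of animals per library. TSPAN12 is a tetraspanin that assists Norrin signalling through frizzled-4 in retinal endothelial cells, and F4L5.13 is known as an agonist that joins frizzled-4 with LRP5.

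Each group was 1 library, so no difference between conditions has a replicate check and none is given a p-value. The libraries held 6081, 10239 and 8917 kept barcodes in WT, KO and treated order, with medians of 14792, 8408 and 9708 reads. The median member had 16731 reads in WT (5064 to 90862), 20779 in KO (7352 to 73662) and 21703.5 in the treated library (3673 to 124677). Tspan12 itself was read at 26.8, 17.1 and 14.2 reads per 1000000 reads (CPM) over all kept barcodes and at 4.24, 2.73 and 5.68 CPM over the members. The labels do not say which part of the gene is deleted, and 3′ reads outside a deleted part do not check the genotype. Between 15 and 31 barcode sequences were shared by each pair of libraries.

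The values were taken as reads not collapsed to molecules, because rarely detected genes carry several counts in a barcode. The sources used here do not give the counting step. Levels are therefore given as CPM over the summed reads of the members of a library. Intervals are exact 95% intervals on reads divided by an estimate of reads per molecule (2.90 in WT, 2.87 in KO and 3.21 in the treated library), and they cover counting error only. A gene was called past the fold between conditions at a ratio of 2 or more in either direction, with 30 or more molecule equivalents in the higher library and with the interval bound nearest to 1 beyond 1.5. Such a gene is called higher or lower below, which describes 2 libraries.

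The label was checked against bipolar genes outside the rule. Isl1, a LIM homeobox gene of ON bipolar cells, stood at 456 CPM in WT, 538 in KO and 512 in the treated members, and was detected in 90.3, 99.4 and 93.1% of the members. Cabp5, a calcium-binding protein of several bipolar types including type 5, stood at 1407, 928 and 1120 CPM. Both genes are among 5 listed for ON cone bipolar cells. In the edgeR test described below, 1 of these 5 was higher and 4 lower than in type 6. Against type 7 it was 2 and 2, and against rod bipolar cells 3 and 2. The 11 listed OFF cone bipolar genes summed to 1128, 751 and 940 CPM in the members. Their sum was 842, 960 and 912 CPM in type 6 and 659, 736 and 720 CPM in type 7. In rod bipolar cells it was 170, 236 and 129 CPM. Prkca, the rod bipolar marker, stayed at or below 29.9 CPM in the members, against 1340.1 to 1687 CPM in rod bipolar cells. The gate has no term against the remaining type 5, 8 and 9 cells. In WT, KO and treated members, their 5 listed markers stood at 10.3, 8.70 and 17.4 CPM (Chrm2), 12.7, 11.7 and 21.6 CPM (Slitrk5), 66.0, 41.7 and 60.1 CPM (Serpini1), 21.9, 33.1 and 36.4 CPM (Lrrtm1) and 32.1, 9.44 and 38.1 CPM (Cpne9). Their sum was 143, 105 and 174 CPM in the members, beside 158, 117 and 140 CPM in type 6 and 153, 118 and 115 CPM in type 7 cells. It was 70.4, 55.4 and 64.2 CPM in rod bipolar cells. The members thus stood below types 6 and 7 in WT and KO, above them in the treated library, and above rod bipolar cells in each library.

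The members were chosen by their measured reads of the genes in the rule, so those genes are a description with no test. Htr3a stood at 134, 135 and 144 CPM in the WT, KO and treated members, and Sox6 at 265, 216 and 199 CPM. In the comparison types, Htr3a did not exceed 5.24 CPM and Sox6 did not exceed 12.8 CPM. Members just inside the threshold, with 4 or 5 reads of the pair, numbered 83, 48 and 61. Barcodes just outside, with 2 or 3 reads, that met every other term numbered 89, 63 and 98. Across that threshold, Dapl1 stood at 108, 85.8 and 105 CPM just inside and at 67.2, 57.1 and 71.7 CPM just outside. Tns1 stood at 55.6, 33.1 and 34.9 CPM just inside and at 27.4, 17.4 and 13.6 CPM just outside. Of the 12 genes named below as furthest above the other types, 4 (Tns1, Gm10115, Cacna1e and Dapl1) were lower just outside in all 3 libraries. Cox8b was higher just outside in all 3, and 7 went both ways.

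Some members carried reads of other cells, and the libraries differed in which. Reads of 10 amacrine genes summed to 74.9 CPM in WT, 384 in KO and 48.5 in treated members. In KO they were found in 77 of 169 members, and 5 members held 58.4% of them. Reads of 8 endothelial genes summed to 233, 16.9 and 256 CPM, and 5 members held 93.0% of them in WT and 97.3% in the treated library. Cldn5, the tight junction claudin of endothelium, was at 91.0, 0 and 85.2 CPM. Reads of 6 ganglion cell genes summed to 20.3, 6.71 and 200 CPM, with 96.9% of the treated reads in 5 members. Reads of 8 microglial genes summed to 5.58, 8.45 and 7.51 CPM, and those of 16 rod genes to 5519, 4675 and 4995 CPM. The amacrine list stood at 202 CPM in KO type 7 cells and at 253 CPM in KO rod bipolar cells, against 14.4 and 9.28 CPM in WT. In type 6 cells it stood at 73.7 CPM in KO and at 62.6 CPM in WT.

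Counted by member, 9 in WT, 19 in KO and 12 in the treated library had 5 or more reads of 28 amacrine, endothelial, ganglion and microglial genes. These are the members with reads of other cells left out below, and members with fewer such reads stay in. A second set read like OFF cone bipolar cells, with 5 or more reads of the kainate receptor gene Grik1 and none of Isl1 or Grm6. These OFF-pattern members numbered 16 in WT, 0 in KO and 10 in the treated library, and 15 of those in WT and 8 of those in the treated library had Sox6 reads without Htr3a reads. For named genes and counts, a change of more than 1.5-fold or a lost call without either set is given beside the value, where the gene could still be measured or its ratio moved by that much. The part of these members in the other results was not tested.

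Type 5A members made up 3.90% of kept barcodes in WT (exact Clopper-Pearson 95% interval 3.42 to 4.41), 1.65% in KO (1.41 to 1.92) and 2.42% in the treated library (2.11 to 2.76). These shares have denominators that differ in depth, with 31, 4117 and 3391 kept barcodes below 5000 reads. Among barcodes past the ON gate (2526, 1914 and 2328) the members were 9.38% in WT (8.27 to 10.6), 8.83% in KO (7.60 to 10.2) and 9.28% in the treated library (8.13 to 10.5). Barcodes with 5000 or more reads were then thinned to 5000 reads and the rest left out, which left 2308, 1654 and 2053 past the ON gate. Those shares were then 2.95% (2.30 to 3.72), 2.60% (1.89 to 3.49) and 2.68% (2.02 to 3.47). The intervals of the 3 libraries overlapped at both depths. They cover counting error within a library, and with 1 library a condition no difference in share between conditions was tested. The bead depletion and the KO and treated barcodes of low depth can both set shares of all kept barcodes.

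Type 5A members were then compared with 3 other ON bipolar types cut from the same libraries past the same ON gate. These were 521 type 6 cells with Cnmd reads, 580 type 7 cells with Igfn1 reads and 2119 rod bipolar cells with Sebox reads. Each type needed 2 or more reads of its gene and fewer than 4 of Htr3a and Sox6 together. Median reads in WT, KO and treated order were 11662.5, 17398 and 16337 in type 6 and 13823, 18540 and 15625.5 in type 7. In rod bipolar cells they were 11291.5, 10711 and 13041, and all were below the members' median in the same library. Reads were summed by type and library, and the 12 sums were fitted with edgeR's quasi-likelihood test with library as a covariate. The 3 libraries, which are also the 3 conditions, serve as replicates of a difference between types. The p-values rest on how far that difference varied from library to library, since the covariate takes up the levels of each library. Of 14929 genes tested, 110 (0.737%) were at least 2-fold higher in type 5A than in each of the 3 types at an adjusted p under 0.05, and 22 (0.147%) were lower. With cells thinned to 5000 reads, 159 were higher and 31 lower of 11032 genes. Against type 6 alone, 567 genes were higher (3.8%) and 646 lower (4.33%). Against type 7, 630 were higher (4.22%) and 680 lower (4.55%), and against rod bipolar cells 1959 were higher (13.1%) and 1927 lower (12.9%).

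Of 39 tested transcription factors of bipolar cells, 3 were at least 2-fold higher in type 5A than in all 3 types, namely Nfia, Nfix and Meis2. Nfia, a nuclear factor I transcription factor, stood at 664, 712 and 618 CPM in WT, KO and treated type 5A members and at or below 166 CPM in every sum of the other types. Its log2 fold change was 1.97 ± 0.12 (SE, n = 3 libraries) against type 6, 2.39 ± 0.12 against type 7 and 3.41 ± 0.12 against rod bipolar cells, and the largest of the 3 edgeR adjusted p-values was 1.6e-07. Nfix, of the same family, stood at 200, 241 and 190 CPM in type 5A, and was higher by a log2 of 2.23, 2.95 and 3.17 against types 6, 7 and rod bipolar. Meis2, a TALE homeobox gene, stood at 318, 314 and 315 CPM in the 3 libraries and at 106 CPM or less elsewhere. Its log2 fold change against type 6 was 1.63 ± 0.22 (SE, n = 3 libraries; edgeR adjusted p = 0.00021). The LIM homeobox gene Lhx4 was also higher than in each type, by a log2 of 0.93, 1.41 and 1.86, which is below 2-fold against type 6. Of the 39 factors, 12 were higher and 10 lower than in type 6, 15 and 8 than in type 7, and 25 and 7 than in rod bipolar cells. Over all genes tested, the median log2 fold change was 0.01, 0.00 and 0.01 in these comparisons, against 0.14, 0.42 and 1.46 for this list.

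Vsx1, a homeobox gene of several cone bipolar types, went the other way against the cone types. It stood at 48.8, 92.4 and 59.5 CPM in WT, KO and treated type 5A members, against 310 to 349 CPM in type 6 and 527 to 553 CPM in type 7. Its log2 fold change was -2.39 ± 0.27 against type 6, -3.12 ± 0.27 against type 7 and 2.36 ± 0.30 against rod bipolar cells (SE, n = 3 libraries). All 3 differences had edgeR adjusted p-values at or below 3.8e-05.

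Of 41 tested channel genes, 11 were higher and 2 lower than in type 6, 10 and 4 than in type 7, and 24 and 4 than in rod bipolar cells. Over all genes tested, the shares higher and lower were 3.8 and 4.33%, 4.22 and 4.55%, and 13.1 and 12.9% in these comparisons. Cacna1e, the R-type calcium channel pore subunit, stood at 15.2, 23.6 and 17.2 CPM in the WT, KO and treated members and at 4.45 CPM or less in every other sum. Its log2 fold change was 2.63 ± 0.41 against type 6 (SE, n = 3 libraries; edgeR adjusted p = 0.00076). Kcnj14, an inward rectifier potassium channel, was higher by a log2 of 1.08, 1.64 and 1.05 against types 6, 7 and rod bipolar, and lost its call against type 6 without the treated library (edgeR adjusted p = 0.080). Kcng4, a modulatory potassium channel subunit, was higher by 1.86, 0.94 and 4.06 on that scale, and lost its call against type 7 in DESeq2 (DESeq2 adjusted p = 0.068). In the other direction, Cacna2d3, an auxiliary calcium channel subunit, stood at 77.4, 90.2 and 72.9 CPM in type 5A. It was lower than in each type, by log2 fold changes of -1.35, -1.32 and -2.95.

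Calcium-binding proteins and the mGluR6 cascade differed in part. Hpca, which encodes hippocalcin, stood at 113, 134 and 101 CPM in the members and at 31.7 CPM or less in the other sums. Ncs1, a related neuronal calcium sensor, stood at 93.2, 99.9 and 92.9 CPM and was higher by a log2 of 1.28, 1.16 and 2.54 against types 6, 7 and rod bipolar. Cabp5 was higher by 1.24, 1.79 and 1.00. In the mGluR6 cascade, 12 genes were tested, of which 4 were higher and 4 lower than in type 6. Against type 7 it was 4 and 6, and against rod bipolar cells 2 and 9. The shares over all genes were 3.8 and 4.33%, 4.22 and 4.55%, and 13.1 and 12.9%. Rgs11, a GTPase-activating protein that speeds the ON response, stood at 134, 254 and 166 CPM and was lower by log2 fold changes of -1.11, -1.02 and -0.93. Its partner Gnb5 was lower by -0.59, -0.63 and -0.61. Nyx, which encodes nyctalopin, a protein that anchors TRPM1, was higher by 0.73, 0.68 and 1.24. Each of these differences had an edgeR adjusted p under 0.05. Nyx lost its call against type 6 without WT (edgeR adjusted p = 0.071) or without the treated library (0.061), and against type 7 without WT (0.053).

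Among genes outside these lists, those furthest above all 3 types were Fndc1, Tns1 and the noncoding RNA BC046251. Fndc1, a fibronectin type III domain gene at chr17:7738569-7827302, stood at 19.2, 10.4 and 20.5 CPM in type 5A and at 2.10 CPM or less in every other sum. Its log2 fold changes were 3.88 ± 0.78, 3.73 ± 0.76 and 4.02 ± 0.72 (SE, n = 3 libraries). Tns1, a focal adhesion tensin, stood at 51.3, 36.8 and 42.1 CPM, with differences of 3.68, 3.95 and 3.21. BC046251 stood at 52.9, 49.2 and 57.3 CPM, with differences of 3.07, 3.39 and 4.18. The next genes in order were Tcerg1l, Gm32352, Wfdc1, Metrnl, Inhbb, Cox8b, Gm10115, Cacna1e and Dapl1. Wfdc1, a whey acidic protein domain gene, stood at 39.7, 70.8 and 52.0 CPM, and Inhbb, the inhibin beta B subunit, at 22.3, 26.8 and 17.8 CPM. Dapl1 stood at 134, 87.0 and 108 CPM, against 30.6 CPM or less elsewhere. Without the treated library Fndc1 lost its call against type 7, and without the WT library Inhbb, Cox8b and Gm10115 lost theirs against type 6 and Inhbb also against type 7. The edgeR adjusted p-values were then 0.075 for Fndc1, 0.080 and 0.054 for Inhbb, 0.11 for Cox8b and 0.089 for Gm10115. Metrnl lost its call against type 7 in each leave-one-out fit, with edgeR adjusted p from 0.055 to 0.11, and against type 6 without the treated library (0.077).

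Fewer genes set type 5A apart by a low level. Siah3, a RING finger gene, stood at 4.91, 2.49 and 7.51 CPM in the members, against 11.9 CPM or more in every other sum. Slc5a8, a sodium-coupled monocarboxylate transporter, stood at 3.35, 7.70 and 3.66 CPM, against 9.20 CPM or more. Tnr, which encodes tenascin-R, stood at 16.1, 19.4 and 11.9 CPM, against 31.0 CPM or more. The integrin subunit gene Itgav, the cadherin gene Cdh12, Rsph10b and the transcript models Gm16346, Gm17634, Gm49685, Gm43508 and 4930555F03Rik completed the 12 named with Siah3, Slc5a8, Tnr and Cacna2d3. Gm49685 overlaps Cdh12 in the annotation, so their reads cannot be assigned with certainty. Several of these calls depended on 1 library. Without WT and without the treated library, the edgeR adjusted p against type 7 was 0.26 and 0.11 for Slc5a8 and 0.20 and 0.14 for Gm16346. Against type 6 it was 0.16 and 0.093 for Itgav, 0.076 and 0.064 for Cdh12 and 0.12 and 0.11 for Gm49685. Itgav also lost its call against type 7 without the treated library (edgeR adjusted p = 0.071), Gm17634 without WT (0.065), and 4930555F03Rik without WT (0.055) or KO (0.077). Without the OFF-pattern and other-cell members, Gm16346 lost its call against type 7 (edgeR adjusted p = 0.075), and the log2 fold changes of Itgav moved by 0.61 in each comparison. With cells thinned to 5000 reads, Gm16346 and 4930555F03Rik lost theirs against type 7 (edgeR adjusted p = 0.19 and 0.15). Gm49685 then lost its call against type 6 (edgeR adjusted p = 0.096).

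The adhesion and receptor lists were described in the same way. Over all genes tested, 3.8% were higher and 4.33% lower than in type 6. The shares were 4.22 and 4.55% against type 7, and 13.1 and 12.9% against rod bipolar cells. Of 73 adhesion and wiring genes, 10 were higher and 9 lower than in type 6, 19 and 13 than in type 7, and 43 and 11 than in rod bipolar cells. Cdh11, a classical cadherin, stood at 194, 186 and 184 CPM in type 5A and at 77.3 CPM or less elsewhere. Adgrl3, which encodes the synaptic adhesion receptor latrophilin-3, stood at 152, 96.9 and 130 CPM. It lost its call against types 6 and 7 without WT (edgeR adjusted p = 0.073 and 0.085) and against type 7 without the treated library (0.098). In DESeq2 it also lost its call against type 7 (DESeq2 adjusted p = 0.13). Lrrtm1, a leucine-rich repeat synaptic protein that is also among the listed markers of the remaining type 5, 8 and 9 cells, was higher by a log2 of 1.77, 2.33 and 1.67 against types 6, 7 and rod bipolar. Without the treated library it lost its call against type 6 (edgeR adjusted p = 0.054). Higher and lower counts against types 6, 7 and rod bipolar were 3 and 4, 4 and 2, and 8 and 2 of 16 GABA and glycine receptor genes. They were 1 and 2, 2 and 1, and 7 and 1 of 17 ionotropic glutamate receptor genes. For 13 modulator receptor genes they were 2 and 1, 1 and 2, and 7 and 1. The dopamine receptor gene Drd2 stood at 86.5, 64.9 and 75.5 CPM, higher than type 6 by a log2 of 2.37 and lower than rod bipolar cells by -0.83. Drd1 stood at 302, 380 and 323 CPM, and exceeded rod bipolar cells alone in the test, by 2.61. Of 30 nuclear genes of oxidative phosphorylation, 26 were lower than in rod bipolar cells, 6 lower than in type 7 and 4 lower than in type 6, with 0, 0 and 1 higher.

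**Figure D1:**
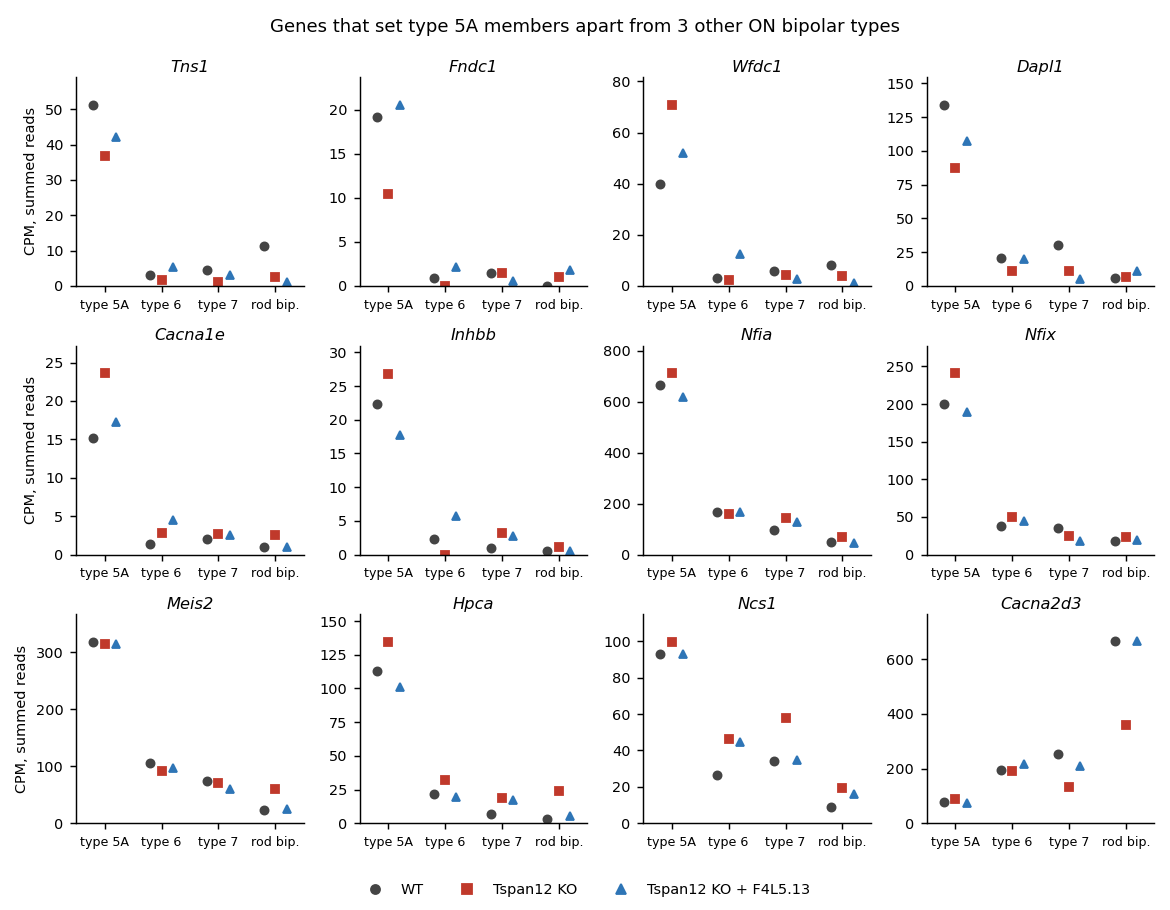
Levels of 12 genes in 4 ON bipolar types, as CPM of summed reads on linear axes from 0, with 1 point for each library (WT circles, KO squares, treated triangles). Nfia stands at 618 to 712 CPM in type 5A and at or below 166 CPM in the other types, and Cacna2d3 is the gene shown with its lowest levels in type 5A.

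The members themselves were not uniform. Both Htr3a and Sox6 were read in 57.0% of WT, 68.6% of KO and 59.7% of treated members. Htr3a alone was read in 15, 16 and 35 members, and Sox6 alone in 87, 37 and 52, which is 36.7, 21.9 and 24.1%. Sums of the Htr3a-only and Sox6-only members were compared over the 3 libraries with edgeR's quasi-likelihood test. Of 9543 genes, 5 were higher in Htr3a-only members (0.0524%) and 17 in Sox6-only members (0.178%). Without the OFF-pattern members and those with reads of other cells, 11 were higher (0.119%) and 16 lower (0.173%) of 9251 genes. The read of Htr3a or Sox6 in a cell is limited by depth, with 5 or 6 reads of the pair in the median cell of either subset.

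The 5 genes higher in Htr3a-only members were Meis2, Kirrel3, Lmo4, Gas6 and Gadd45g. Meis2 stood at 665, 511 and 621 CPM in WT, KO and treated Htr3a-only members and at 311, 234 and 147 CPM in Sox6-only members (log2 fold change 1.48 ± 0.20, SE, n = 3 libraries; edgeR adjusted p = 0.0052). Kirrel3, an immunoglobulin superfamily adhesion gene, stood at 105, 55.6 and 112 CPM against 25.3, 5.11 and 13.8 CPM, a log2 fold change of 2.77 ± 0.40 (SE, n = 3 libraries). The levels of both genes were higher in Htr3a-only members in 3 of 3 libraries, with no overlap of the 2 subsets. Both were named by this same test, so the separation describes them and adds no support. The share of all genes separated in this way was not counted. Lmo4, a LIM-only cofactor, differed by 0.88, Gas6, a ligand of TAM receptors, by 1.04 and Gadd45g by 1.33 on the log2 scale. Without the OFF-pattern and other-cell members the 5 differences were 1.28 for Meis2, 3.18 for Kirrel3, 0.72 for Lmo4, 0.96 for Gas6 and 1.26 for Gadd45g, and all kept an edgeR adjusted p under 0.05. Leaving out the treated library ended the call of each but Meis2, and leaving out WT ended those of Lmo4, Gas6 and Gadd45g. With cells thinned to 5000 reads, Gas6 and Gadd45g lost theirs (edgeR adjusted p = 0.34 and 0.095).

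Grik1, Otor and Pcp4 stood on the side of the Sox6-only members. Grik1 stood at 728, 341 and 688 CPM in Sox6-only and at 197, 183 and 127 CPM in Htr3a-only members (log2 fold change -1.73 ± 0.23, SE, n = 3 libraries; edgeR adjusted p = 0.0052). Otor, which encodes the secreted protein otoraplin, stood at 342, 80.7 and 296 CPM against 74.4, 39.7 and 34.9 CPM. Pcp4, a calmodulin regulator, stood at 1573, 1033 and 1527 CPM against 695, 381 and 670 CPM. The levels of these 3 genes, named by the same test, did not overlap between the subsets, which adds no support. Without the treated library Otor lost its call (edgeR adjusted p = 0.055). Without the OFF-pattern and other-cell members their differences were -1.59 for Grik1, -1.98 for Otor and -0.68 for Pcp4, with edgeR adjusted p of 0.0034, 0.0071 and 0.025. Sparc and Jun lost their call in that fit, with edgeR adjusted p of 0.89 and 0.19, and Klf4 and Vim fell below its filter. With all members, Klf4 lost its call in DESeq2 (DESeq2 adjusted p = 0.38). Gm43318, Gm42769 and Gm43670, unnamed transcript models between positions 48948021 and 49426783 of chromosome 5, were also higher in Sox6-only members.

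**Figure D2:**
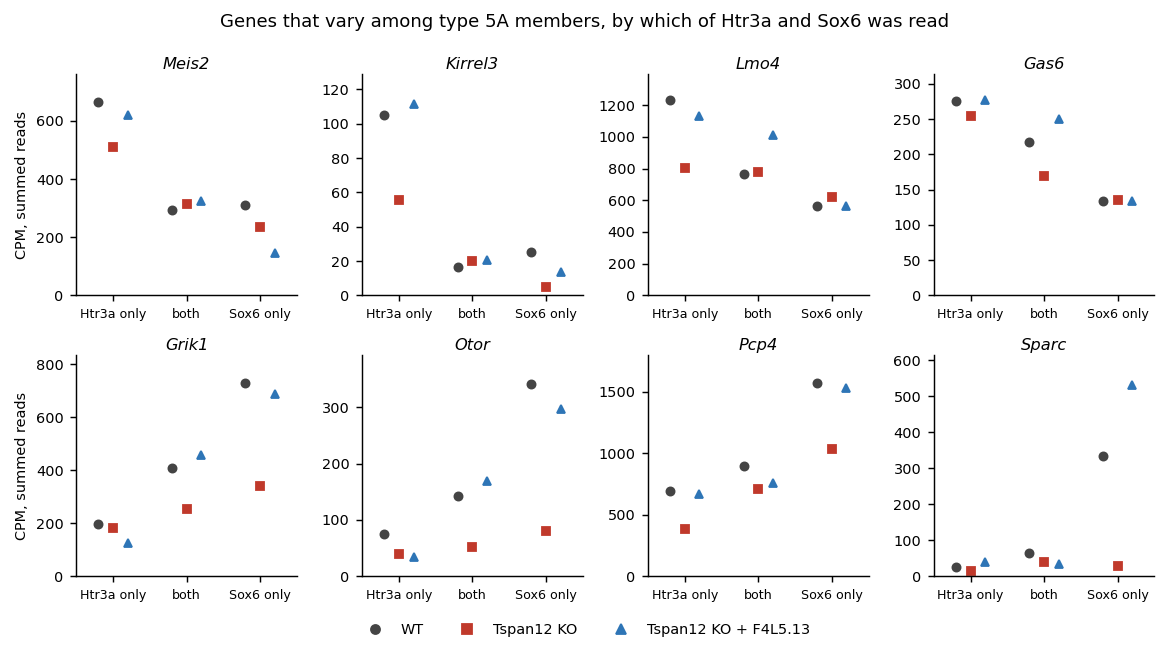
CPM of 8 genes in members with Htr3a reads only, with both and with Sox6 reads only, 1 point for each library, on linear axes from 0. Meis2 and Kirrel3 are highest in the Htr3a-only members, Grik1, Otor and Pcp4 in the Sox6-only members, and Sparc reaches 334 CPM in WT and 532 CPM in treated Sox6-only members but 29.6 CPM in KO.

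Between the WT and KO members, 7930 genes could be measured, of which 95 were higher in KO (1.2%) and 84 lower (1.06%), with a median log2 ratio of 0.00 over all. Without the members with reads of other cells, 62 were higher (0.845%) and 42 lower (0.572%) of 7341. The genes higher in KO included those of the response to low oxygen, sugar metabolism and metal binding. In low oxygen the transcription factors HIF1 and HIF2 escape degradation by prolyl hydroxylases and bind hypoxia response elements, whose core reads ACGTG. Their targets include glycolytic enzymes and the hydroxylase genes themselves. Metallothioneins bind zinc and copper and are driven by MTF1 at metal response elements, searched here as TGCGCNC or TGCACNC.

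The promoters of 2 genes of the hypoxia response and of both metallothioneins are shown as examples of windows that hold the motifs, with every ACGTG (Egln1, Hk2) or metal element (Mt1, Mt2) on either strand in capitals. Each runs from 250 bases before the transcription start to 50 after it, from RefSeq on GRCm38.p6, on the strand of the gene. Egln1 lies at chr8:124949205-124949504 on the minus strand, Hk2 at chr6:82774405-82774704 on the minus strand, Mt1 at chr8:94178839-94179138 and Mt2 at chr8:94172368-94172667 on the plus strand.
Egln1: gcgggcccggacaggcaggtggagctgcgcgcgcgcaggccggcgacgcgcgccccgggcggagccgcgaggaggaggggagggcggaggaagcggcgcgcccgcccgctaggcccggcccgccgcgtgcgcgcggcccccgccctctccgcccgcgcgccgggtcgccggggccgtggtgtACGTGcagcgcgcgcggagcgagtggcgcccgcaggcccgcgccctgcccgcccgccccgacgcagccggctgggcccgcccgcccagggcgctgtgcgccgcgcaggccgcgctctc
Hk2: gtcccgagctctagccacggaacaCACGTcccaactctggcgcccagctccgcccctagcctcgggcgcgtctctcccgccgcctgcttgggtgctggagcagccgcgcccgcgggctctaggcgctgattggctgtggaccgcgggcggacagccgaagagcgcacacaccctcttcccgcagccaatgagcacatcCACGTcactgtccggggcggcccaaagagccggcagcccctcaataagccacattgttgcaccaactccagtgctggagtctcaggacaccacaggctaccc
Mt1: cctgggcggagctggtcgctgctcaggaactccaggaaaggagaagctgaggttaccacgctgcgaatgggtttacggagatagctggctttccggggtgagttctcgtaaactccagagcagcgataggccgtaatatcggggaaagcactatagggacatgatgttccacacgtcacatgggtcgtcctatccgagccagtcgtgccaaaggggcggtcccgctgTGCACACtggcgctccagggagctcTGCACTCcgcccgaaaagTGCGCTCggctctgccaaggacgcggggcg
Mt2: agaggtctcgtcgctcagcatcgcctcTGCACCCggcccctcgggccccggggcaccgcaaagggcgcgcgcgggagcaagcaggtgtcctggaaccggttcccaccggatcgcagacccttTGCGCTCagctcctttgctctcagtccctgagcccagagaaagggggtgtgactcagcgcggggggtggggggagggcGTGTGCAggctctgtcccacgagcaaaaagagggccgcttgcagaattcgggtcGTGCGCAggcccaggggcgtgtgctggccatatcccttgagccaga
The Egln1 window holds 1 ACGTG, at position -68 from the start, and that of Hk2 holds 2, at -226 and -52. The Mt1 window holds 3 metal elements, at -23, 2 and 20, and that of Mt2 holds 4, at -223, -128, -50 and 4. Of 27025 RefSeq promoters of this length, 19.7% hold an ACGTG and 25.6% a metal element. Among the 5958 measured genes with a promoter in the table the shares are 27.7 and 38.4%, and among the 70 such genes that were higher in KO they are 35.7 and 44.3%. Of 10 promoters examined for ACGTG, those of Egln1, Hk2, Higd1a, Pgk1 and Selenbp1 hold one and those of Eno1, Gys1, Col23a1, Tnnc1 and Tacr3 hold none. A match describes the letters of the window and does not show a bound site.

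Of 22 measured genes of the hypoxia response, 6 were higher in KO members and 0 were lower, the ratio was above 1 in 20, and the median log2 ratio was 0.54. Hk2, the hexokinase that traps glucose in the cell, stood at 64.7 CPM in WT, 234 in KO and 78.2 in treated members, a KO to WT ratio of 3.61 (2.88 to 4.57). Egln1, the prolyl hydroxylase that marks HIF for degradation, stood at 73.4, 191 and 74.9 CPM (2.60, 2.08 to 3.27). Higd1a, a mitochondrial protein induced in low oxygen, stood at 212, 542 and 163 CPM (2.56, 2.24 to 2.92). In each of these genes KO stood above the other 2 libraries, which were close to each other. Bnip3, a mitophagy receptor, stood at 96.6, 205 and 84.4 CPM, and Pdk1, a brake on pyruvate entry into mitochondria, at 35.0, 84.2 and 33.9 CPM. Eno1, an enolase, stood at 370, 759 and 291 CPM. Vegfa, which encodes the angiogenic growth factor, was not past the fold, at 105, 160 and 145 CPM (1.52, 1.24 to 1.87).

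Of 26 measured genes of glycolysis, pyruvate and lactate, 5 were higher, 1 was lower and the median log2 ratio was 0.57. Besides Hk2, Eno1 and Pdk1, these were Aldoc, an aldolase, at 522, 1049 and 477 CPM and Slc2a3, a neuronal glucose transporter, at 52.4, 107 and 75.8 CPM. Both were just past the fold. The ratio of Aldoc was 2.01, and 1.999 without the OFF-pattern members, and that of Slc2a3 was 2.03, and 1.92 without the members with reads of other cells. Ldha, lactate dehydrogenase A, stood at 826, 1383 and 769 CPM, a ratio of 1.67 (1.56 to 1.80) that did not reach the fold. The lower gene was Slc16a7, a monocarboxylate transporter, at 53.8, 18.4 and 44.3 CPM, which was 2.92-fold lower in KO. Gys1, which encodes muscle-type glycogen synthase, stood at 13.8, 68.6 and 14.7 CPM (4.96, 3.08 to 8.34), and Pygl, liver-type glycogen phosphorylase, at 36.1, 4.47 and 20.0 CPM. KO members thus had the highest level of Gys1 and the lowest of Pygl in the 3 libraries. Each is 1 isoform of its enzyme, other isoforms are not given here, and glycogen synthesis or breakdown was not tested. None of the 30 nuclear and 9 mitochondrial genes of oxidative phosphorylation measured was past the fold, with median log2 ratios of -0.05 and -0.14.

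Mt1, a metallothionein, stood at 728 CPM in WT, 2512 in KO and 708 in treated members, a KO to WT ratio of 3.45 (3.22 to 3.69). Mt2 stood at 141, 450 and 181 CPM (3.19, 2.73 to 3.74). Mt3, the third member of the family measured, stood at 190, 324 and 183 CPM (1.71, 1.47 to 1.99) and was not past the fold. All 169 KO members had Mt1 reads, against 207 of 237 WT and 204 of 216 treated members.

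Several genes higher in KO fell outside these lists. Col23a1, a transmembrane collagen, stood at 30.3, 145 and 52.2 CPM (4.78, 3.47 to 6.72) and was read in 118 of 169 KO and 54 of 237 WT members. Tnnc1, which encodes slow and cardiac troponin C, stood at 30.8, 140 and 35.5 CPM (4.56, 3.31 to 6.40), in 116 KO and 53 WT members. Both genes were high across many KO members. Selenbp1, a selenium-binding protein, stood at 13.4, 61.4 and 15.0 CPM (4.59, 2.81 to 7.82). Mif-ps stood at 160, 466 and 111 CPM (2.91, 2.51 to 3.39), but it is a pseudogene whose reads may come from its parent gene Mif. H2-Ab1, an MHC class II chain, was read in 29 KO members at 24.4 CPM and in 0 WT members, which makes it at least 12.5-fold higher against a floor of 3 molecule equivalents in the WT sum. Its class II partners H2-Aa, H2-Eb1 and Cd74 had no read in KO members.

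A further group of genes that were higher in KO was read in a minority of members. Neto1, a kainate receptor auxiliary subunit, stood at 19.9, 91.0 and 11.0 CPM, in 18 WT, 40 KO and 18 treated members. Tacr3, the neurokinin receptor of some OFF bipolar types, stood at 6.02, 38.5 and 2.20 CPM, in 13, 29 and 8 members. Kcna1, a potassium channel, stood at 1.34, 25.1 and 2.01 CPM, in 3, 19 and 2 members. The KO members with these reads were between 11.2 and 23.7% of all KO members. The transcription factor gene Ebf1 stood at 30.3, 106 and 22.5 CPM, a KO to WT ratio of 3.51 that became 5.87 without the members with reads of other cells. The ratio of Neto1 was 12.7 in type 6, 63.2 in type 7 and 29.9 in rod bipolar cells, against 4.58 in type 5A. Without the members with 5 or more reads of the 28 other-cell genes, Neto1 stood 5.23-fold and Tacr3 7.29-fold higher in KO. Members with fewer such reads remained, and their part in these ratios was not tested. Cartpt, a neuropeptide gene of amacrine cells, stood at 2.01, 506 and 5.68 CPM, with 99.2% of the KO reads in 5 members, and its ratio of 252 became 3.65 (0.846 to 23.4) without the members with reads of other cells.

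The genes furthest below WT included Otor, Nnat and Mir670hg. Otor stood at 218, 58.2 and 187 CPM, 3.75-fold lower in KO (2.94 to 4.84). Nnat, which encodes the membrane proteolipid neuronatin, stood at 349, 109 and 249.6 CPM, 3.21-fold lower (2.68 to 3.87). The noncoding Mir670hg stood at 142, 44.2 and 143 CPM, 3.21-fold lower (2.41 to 4.32). KO was lowest in all 3. Otor and Nnat also varied among the members, and the KO to WT ratio of Otor was 0.301 without the OFF-pattern members and 0.368 in members with both Htr3a and Sox6, against 0.267 in all. For Nnat these ratios were 0.368, 0.407 and 0.311. Grik1 stood at 525, 267 and 478 CPM, a ratio of 0.510 (0.450 to 0.577) that was not past the fold, and 0.583 without the OFF-pattern members.

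Pde4b and Pde7b, both cyclic AMP phosphodiesterases, stood at 76.5, 26.3 and 86.3 CPM and at 31.7, 6.71 and 28.8 CPM. Chodl, a C-type lectin domain protein, stood at 25.9, 5.96 and 25.3 CPM, and Col8a1, a short-chain collagen, at 30.1, 6.46 and 27.3 CPM. Without the members with reads of other cells, the KO to WT ratio of Col8a1 went from 0.215 to 0.120, and its treated to KO ratio from 4.22 to 7.99. Lrrtm3, a synaptic adhesion protein, stood at 90.1, 30.3 and 67.2 CPM, and its ratio moved from 0.336 to 0.589 in members with both Htr3a and Sox6. Slc40a1, the iron exporter ferroportin, stood at 45.3, 13.9 and 37.7 CPM, and Fam13a at 20.1, 2.98 and 9.16 CPM. Tmsb4x, which encodes the actin-sequestering thymosin beta 4, stood at 684, 305 and 633 CPM. Its ratio of 0.446 became 0.577 without the members with reads of other cells, which is no longer past the fold.

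**Figure D3:**
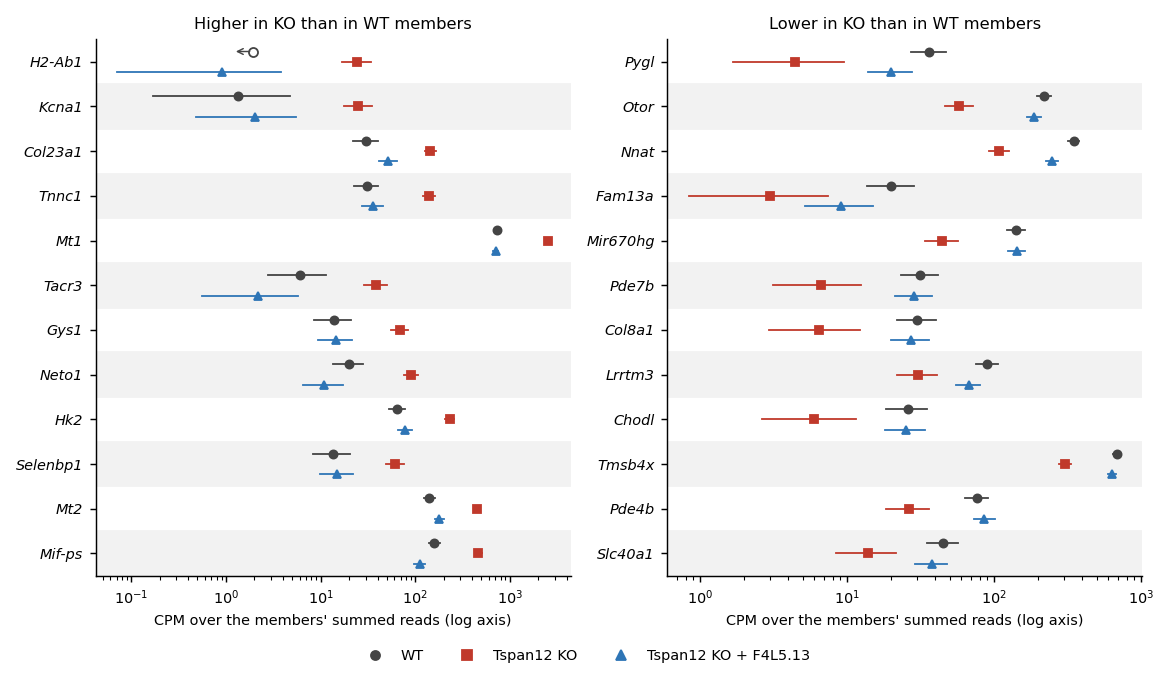
CPM over the members' summed reads in the 3 libraries for the 12 named genes higher in KO (left) and the 12 lower (right), on log axes, with exact 95% intervals for counting error. The open circle with an arrow marks H2-Ab1 in WT, at 0 reads, drawn at the floor of 3 molecule equivalents. KO squares lie to the right of the WT and treated points in the left panel and to their left in the right panel.

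Genes of the light response and of transmission were set beside the shares over all genes, 1.2% higher and 1.06% lower. Lists of this size would hold few calls at those shares. Of 13 measured genes of the mGluR6 cascade, 0 were past the fold in KO, the ratio was above 1 in 11 and the median log2 ratio was 0.22. The farthest was Rgs11, at 134, 254 and 166 CPM (1.89, 1.59 to 2.26). Of 26 genes of the ribbon synapse, 0 were past the fold and the median was 0.18. Slc17a7, the vesicular glutamate transporter VGLUT1, stood at 960, 1245 and 896 CPM (1.30, 1.21 to 1.39), and Ctbp2, which encodes the ribbon protein RIBEYE, at 316, 297 and 319 CPM. None of 12 GABA and glycine receptor genes was past the fold (median -0.03). Of 10 ionotropic glutamate receptor genes, Grin2b and Neto1 were higher and 0 were lower, with a median of 0.47. Of 9 receptor genes for serotonin, acetylcholine, dopamine and other modulators, Tacr3 was higher and 0 were lower, with a median of 0.13. Of 33 channel genes, Kcna1 was higher and Kcnip4, a potassium channel interacting protein, was lower, at 81.0, 37.5 and 59.0 CPM. The ratio of Kcnip4 was 0.463 and lost its call without the OFF-pattern members (0.501) and without the members with reads of other cells (0.469, 0.324 to 0.669). Of 47 adhesion genes, 0 were higher, and Lrrtm3 and the contactin gene Cntn4 were lower. Of 38 transcription factors, Ebf1 was higher and 0 were lower.

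Stress and activity lists held single genes past the fold, and several of them turned on the members with reads of other cells. Of 14 immediate-early genes, Egr1 was higher, at 257, 608 and 401 CPM, and Klf2 and Klf4 were lower. Klf2 stood at 51.3, 1.74 and 77.3 CPM, the same order of libraries as the endothelial reads. Without the members with reads of other cells, the KO to WT ratio of Klf2 went from 0.0339 to 1.48 (0.140 to 18.1) and that of Klf4 from 0.239 to 0.847 (0.275 to 2.44), so neither stayed lower. Of 16 heat-shock genes Hsph1 was higher, at 54.4, 118 and 61.4 CPM, and of 9 genes of the ATF4 response the amino acid transporter Slc7a5 was lower, at 27.7, 8.45 and 33.9 CPM. Without those members the ratio of Slc7a5 was 0.779 (0.306 to 1.88) in place of 0.306. Of 18 calcium-binding genes, Calb2 and Pcp4l1 were higher and Calb1 was lower. Calb2 stood at 0.892, 45.7 and 204 CPM, with 78.8% of the KO reads and all treated reads in 5 or fewer members. Without the members with reads of other cells, the ratio of Calb2 went from 51.3 to 13.0 (2.43 to 235) and that of Calb1 from 0.342 to 1.00 (0.254 to 3.73). Of 4 measured genes of interferon response and MHC class I, H2-D1 was lower, at 70.5, 31.8 and 53.5 CPM, and its ratio of 0.451 became 0.582 without those members, which is not past the fold. None of 12 cholesterol synthesis, 16 clock and 8 apoptosis and axon-injury genes was past the fold.

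**Figure D4:**
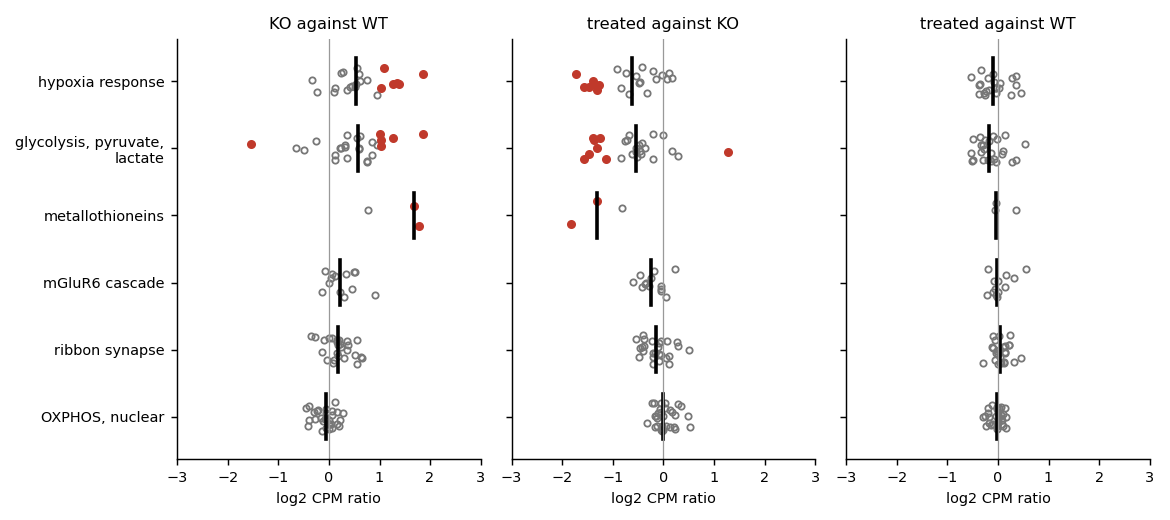
Log2 CPM ratio of each measured gene (points) of 6 gene lists in the members, for KO against WT, treated against KO and treated against WT, with black bars at list medians and filled points for genes past the fold. The hypoxia list has a median of 0.54 in KO against WT and of -0.09 in treated against WT.

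The same 2 libraries gave values for the other ON types. The median log2 ratio of the hypoxia list, KO against WT, was 0.62 in type 6, 0.59 in type 7 and 0.76 in rod bipolar cells, beside 0.54 in type 5A. For glycolysis it was 0.60, 0.48 and 0.71 beside 0.57, and for the 3 metallothioneins 2.07, 1.47 and 1.36 beside 1.67. The KO to WT ratio of Hk2 was 5.66 (4.06 to 7.98) in type 6, 3.51 (2.64 to 4.71) in type 7 and 3.48 (2.82 to 4.34) in rod bipolar cells. That of Col23a1 was 1.74 (0.833 to 3.53), 4.06 (2.08 to 8.56) and 2.05 (1.22 to 3.51), and that of Tnnc1 2.69 (1.46 to 5.00), 2.63 (1.79 to 3.92) and 2.19 (1.52 to 3.19). With 1 library a condition, no difference in these ratios between types was tested. Col23a1 was higher in type 5A than in each other type, by a log2 of 1.85, 2.11 and 2.62.

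**Figure D5:**
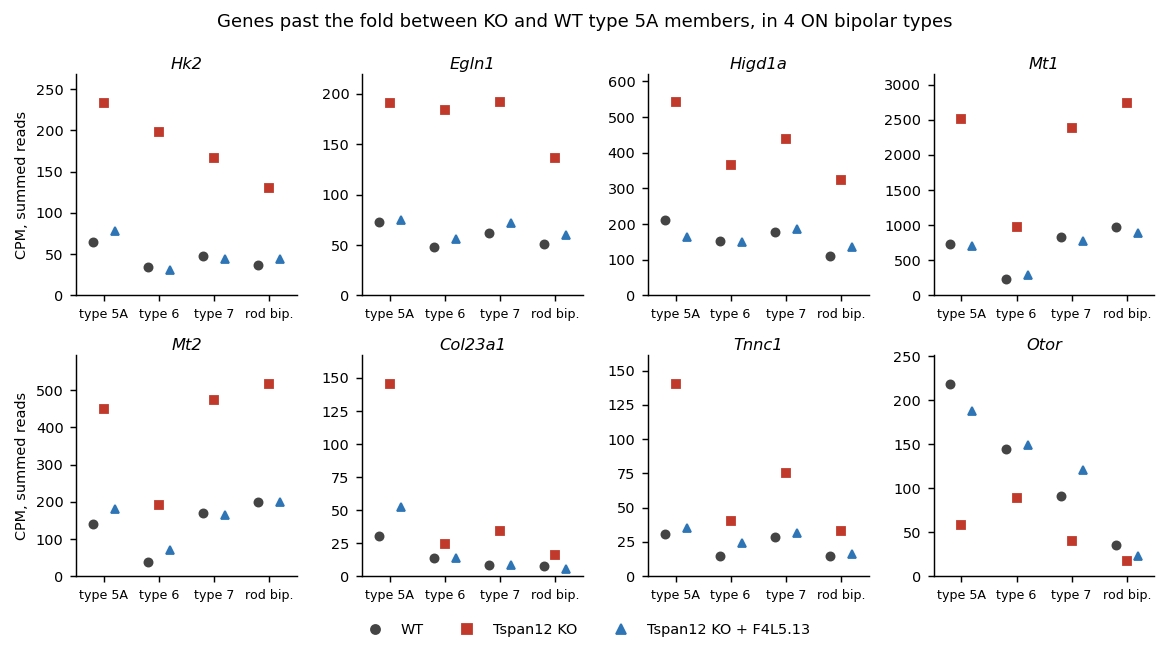
CPM of 8 genes in 4 ON bipolar types, 1 point for each library, on linear axes from 0. KO squares lie above WT and treated points for Hk2, Egln1, Higd1a, Mt1, Mt2, Col23a1 and Tnnc1 in each type shown, and below them for Otor.

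Between the treated and KO members, 8287 genes were measured, of which 97 were higher in the treated library (1.17%) and 81 lower (0.977%). Without the members with reads of other cells, 47 were higher (0.615%) and 72 lower (0.942%) of 7643. This comparison uses the same KO library as the one before, so the values are set side by side only. Of the 22 hypoxia genes, 7 were lower in treated members and 0 higher, with a median log2 ratio of -0.61. These were Hk2, Egln1, Eno1, Higd1a, Bnip3, Pdk1 and the phosphoglycerate kinase gene Pgk1, which stood at 61.1, 117 and 42.3 CPM in WT, KO and treated members. Of 26 glycolysis genes, 7 were lower and Slc16a7 was higher, with a median of -0.54. The ratio of Slc16a7 was 2.41, and its call was lost without the OFF-pattern members (2.05, 1.27 to 3.37) and without the members with reads of other cells (2.45, 1.49 to 4.17). The 3 metallothioneins had a median of -1.32, and Mt1 was 3.55-fold lower in treated than in KO members (3.32 to 3.79). Higd1a was 3.33-fold lower (2.90 to 3.83). Of 13 mGluR6 cascade and 26 ribbon synapse genes 0 were past the fold, with medians of -0.25 and -0.14.

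Other genes lower in treated than in KO members were Cox4i2, Tnnc1 and Gys1. Cox4i2, an oxygen-regulated isoform of a cytochrome c oxidase subunit, stood at 28.8, 91.5 and 16.7 CPM and was 5.49-fold lower (3.63 to 8.56). Its treated to KO ratio of 0.182 became 0.0901 without the members with reads of other cells, and its KO to WT ratio of 3.18 became 4.97. Tnnc1 was 3.95-fold lower (2.95 to 5.36) and Gys1 4.68-fold lower (2.99 to 7.59). Neto1, Tacr3, Kcna1, Ebf1, H2-Ab1, Mif-ps and Nxph1, which encodes a neurexin ligand, completed the 12 named with Cox4i2, Tnnc1, Gys1, Mt1 and Higd1a. Ebf1 was at 0.212 of its KO level in all treated members and at 0.0162 without members with reads of other cells. Kcna1 and H2-Ab1 were at 0 reads in the treated members left without that set.

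Among genes higher in treated than in KO members, Ednrb, the endothelin B receptor gene, stood at 32.8 CPM in WT, 18.1 in KO and 73.3 in treated members, a treated to KO ratio of 4.04 (2.62 to 6.45). Otor was 3.22-fold higher (2.52 to 4.16), Mir670hg 3.23-fold (2.44 to 4.35) and Pde4b 3.27-fold (2.27 to 4.83). Slc44a3, a choline transporter-like gene, stood at 11.6, 1.99 and 21.8 CPM, and Hopx, a homeodomain-only protein gene, at 4.24, 3.23 and 18.1 CPM. Fabp7, a fatty acid-binding protein of glia, stood at 17.6, 3.73 and 22.7 CPM, Pacsin3 at 20.1, 5.47 and 26 CPM and Slc35g2 at 27.2, 8.95 and 35.9 CPM. Pde7b, Col8a1 and Chodl completed the 12. Müller glia genes outside the rule summed to 833, 585 and 725 CPM in the members, and the part of such reads in the Fabp7 value was not tested. The 3 measured ganglion cell genes and 4 of 5 endothelial genes were also higher, in the few members described above.

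Treated members were closer to WT in number of calls, with 30 genes higher (0.362%) and 15 lower (0.181%) of 8291. Without the members with reads of other cells there were 12 (0.154%) and 8 (0.103%) of 7775. In members with 8 or more reads of Htr3a and Sox6, 44 were higher and 2 lower of 5507, and 5 of the 44 were among the 30. At that gate, KO against WT had 49 higher and 11 lower of 4425, and treated against KO had 54 and 51 of 5560. None of the 22 hypoxia, 25 glycolysis and 3 metallothionein genes measured was past the fold, and their median log2 ratios were -0.09, -0.18 and -0.04. Ednrb was 2.23-fold higher than in WT (1.60 to 3.16). Ube2ql1, a ubiquitin-conjugating enzyme-like gene, stood at 4.01, 17.1 and 23.6 CPM (5.89, 2.51 to 16.7), and C1ql3, a secreted C1q-like synaptic protein, at 22.3, 46.7 and 51.5 CPM (2.31, 1.54 to 3.53). The mitotic spindle gene Spag5 stood at 34.3, 32.6 and 72.0 CPM, and Hopx was the fifth named gene. Without the OFF-pattern members the ratio of Spag5 was 2.11 (1.496 to 3.02), which ended its call. On the lower side, Cox7c, a cytochrome c oxidase subunit, stood at 220, 177 and 109 CPM, 2.02-fold lower than WT (1.68 to 2.43). The olfactory receptor gene Olfr77 stood at 57.3, 38.5 and 24.0 CPM, Ppp1r14a, a myosin phosphatase inhibitor, at 24.8, 11.9 and 8.06 CPM, and Nckap5 at 28.8, 18.4 and 10.8 CPM. Nckap5 lost its call without the OFF-pattern members, at a ratio of 0.396 (0.211 to 0.714). Gpi-ps, a pseudogene that may share reads with Gpi1, stood at 21.0, 16.2 and 5.68 CPM.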

How the data were processed

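Single retinal cells of 1 WT, 1 Tspan12 KO and 1 treated Tspan12 KO library at postnatal day 26 were analysed. The authors deposited 1 table of estimated counts per gene and barcode for each library; per the submitters' processing notes, mm10 and Partek 9.0 were used, and the counting step and strand setting are not given in the sources used here. Nonzero values were not all whole: 2.33 to 2.40% were fractional. Rounding set 3.33 to 3.39% of them to 0. Values were taken as reads not collapsed to molecules, an inference from rarely detected genes, which carry several counts in a barcode.

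Barcodes with 500 or more genes and at most 20% mitochondrial reads were kept (6081, 10239 and 8917). Types were cut by read gates with no clustering and no doublet caller; members with reads of other cells were left out in an alternative. The members and the gene lists were chosen with earlier results of these data known. Named genes for conditions were the 12 furthest past the fold on each side by the interval bound nearest to 1 (5 a side for treated against WT, where no more qualified). The 5 cells with most reads had to hold under 50% of the reads in the higher library. Rule genes, photoreceptor, mitochondrial, ribosomal, crystallin and sex-linked genes and unnamed models were left out. For types, the 12 with the largest smallest difference on each side were named, and for subsets up to 10 by adjusted p.

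Type and subset sums were fitted with edgeR 4.0.16 in R 4.3.3 (TMM, filterByExpr, glmQLFit, Benjamini-Hochberg over all genes tested), with DESeq2 1.42.0 as an alternative. Condition ratios used Python 3.11.15 with numpy 2.4.6, scipy 1.17.1 and pandas 2.3.3, and figures used matplotlib 3.10.9. Scripts were tested on simulated counts. Alternatives were a stricter gate of 8 reads, members with both genes, thinning to 5000 reads, a minimum of 10 molecule equivalents, the mean of the members' own CPM, 1000 or more genes, and leaving out the members above the 90th percentile of depth, those above the 75th percentile of rod reads, or 1 library. Leaving out the OFF-pattern and other-cell members was chosen after seeing the data. On that reading of the values PCR duplicates remain in the reads, and intervals cover counting error only.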

Additional observations from a re-analysis of the deposited data

Results flagged for a closer look

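Fam13a went in opposite directions in 2 cell types of the same libraries. It was 6.73-fold lower in KO than in WT type 5A members (2.42 to 25.3), at 2.98 against 20.1 CPM. In rod bipolar cells it was 5.23-fold higher in KO (1.51 to 27.2). The KO to WT ratio was 1.41 (0.201 to 7.60) in type 6 and 1.02 (0.325 to 3.16) in type 7. In type 5A it was 0.145 (0.0385 to 0.404) without the OFF-pattern members. Without the members with reads of other cells it was 0.202 (0.0447 to 0.629). In both settings Fam13a had too few molecule equivalents to count as measured, so its call was not kept. With 1 library per condition, the difference between type 5A and rod bipolar cells was not tested.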

How the results depend on the processing

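Each alternative was recomputed for the counts, the list medians and the called genes named in the text. No paired analysis was possible because each group has a single library and all carry the replicate number 1, so the groups share fewer than 2 numbers. Counts of genes past the fold, which depend on depth and members, moved most. For KO against WT, the 95 higher genes became 49 with the gate of 8 reads, 16 after thinning, 143 at a minimum of 10 equivalents and 62 without members with reads of other cells. The 84 lower genes became 11, 8, 154 and 42 in the same order, 27 in members with both genes and 38 without the deepest members (above the 90th percentile). For treated against KO, the 97 higher genes became 54 with 8 reads, 10 thinned, 177 at 10 equivalents, 47 without other-cell members, 22 with both genes and 41 without the deepest members. The 81 lower genes became 51, 19 and 140 in the first 3. For treated against WT, the 30 higher genes became 44 with 8 reads, of which 5 were among the 30. They became 5 with both genes, 5 thinned, 53 at 10 equivalents, 12 without the deepest members and 12 without other-cell members. The 15 lower genes became 2 with 8 reads, 4 with both genes, 0 thinned, 28 at 10 equivalents, 7 without the deepest members and 8 without other-cell members. The cause was not tested, beyond the fewer reads or members these settings leave.

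Leaving out 1 library in turn gave 260 to 504 genes higher and 310 to 584 lower against type 6, and 237 to 604 higher and 284 to 639 lower against type 7. Against rod bipolar cells it gave 1308 to 1790 higher and 1314 to 1709 lower, and against all 3 types 68 to 110 higher and 12 to 30 lower. The lowest counts came without WT or without the treated library. Between the subsets, leave-one-out gave 1 to 43 higher in Htr3a-only and 12 to 175 in Sox6-only members, with 43 and 175 without KO. DESeq2 gave 9 and 29, no filter beyond 10 reads 40 and 176, thinning 8 higher, and leaving out OFF-pattern and other-cell members 11 higher. The share of members past the ON gate in WT, KO and treated order was 2.95, 2.60 and 2.68% thinned, 3.68, 3.97 and 4.60% with 8 reads and 5.34, 6.06 and 5.54% with both genes. Taken over genes and alternatives, the condition ratios stayed within their interval 964 times, moved 86 times and reversed 15 times, and the type and subset differences kept their side of the threshold 1138 times, lost their call 50 times and gained it 2 times with no reversal. The reversals were in 5 genes. For KO against WT, the ratio was 1.89 for Klf2 and 2.04 for Calb1 without the deepest members, 1.48 and 1.00 without other-cell members, 1.13 for Klf4, 1.503 for Slc7a5 and 5.46 for Calb1 with 8 reads, and 5.01 for Calb1 with both genes. For treated against KO it was 0.829 for Klf4 and 0.00633 for Calb2 with both genes, 0.666 and 0.0162 without other-cell members, and 0.00564 for Calb2 with 8 reads. For treated against WT, Calb2 was at 0.192 with both genes and 0.211 without other-cell members. Of 686 list medians under alternatives, 92 changed sign, 7 of them from a main value beyond 0.2, in the immediate-early, interferon, modulator receptor and ionotropic glutamate receptor lists. Depth limits genes below 30 molecule equivalents, which were not measured.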

Other observations

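Plvap, chosen after its values were seen, is known as a gene of fenestrated endothelium, yet its reads in type 5A were spread over the members. It stood at 70.9 CPM in WT, 122 in KO and 77.1 in treated members, read in 97, 113 and 105 of them, and the 5 members with most reads held 17.0, 13.6 and 12.1%. In every sum of the other types Plvap stood at 33.4 CPM or less. Its log2 fold change was 2.56 ± 0.21 against type 6, 2.80 ± 0.21 against type 7 and 3.21 ± 0.20 against rod bipolar cells (SE, n = 3 libraries), with an edgeR adjusted p of 2.0e-06 or less in each. Without the OFF-pattern and other-cell members it stood at 76.7, 122 and 85.4 CPM.

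Cryab, the small heat-shock protein alpha-B crystallin, was the only one of 17 tested heat-shock genes at least 2-fold higher than in all 3 types in the edgeR test, at 122, 142 and 92.9 CPM in WT, KO and treated members against 27.6 CPM or less elsewhere. H2-Ab1 was read above WT in KO cells of the other types too, at 16.4 CPM in type 6, 19.2 in type 7 and 11.3 in rod bipolar cells, against 0, 2.49 and 0.453 CPM in WT. Irx3, an Iroquois homeobox gene, stood at 87.5, 31.7 and 55.9 CPM in Htr3a-only members and at 0, 3.75 and 0.311 CPM in members with both genes.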
